A study of Mus musculus with 17 samples.

Results

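The colons of control mice and of mice with pyridostigmine-induced Gulf War illness (GWI) were compared for 33 genes of neurons and their synaptic vesicles. These genes encode neuronal marker proteins, neurofilaments and other axonal proteins, the machinery that loads, docks, fuses and recovers vesicles, transcription factors of enteric neurons, and neural adhesion molecules. They were found by gene symbol in the count table. All 33 were present among its 23719 entries, and all 33 were among the 14146 genes that passed a filter on low counts and were tested.

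The enteric nervous system lies in ganglia between and beneath the muscle layers of the gut wall, and its neurons drive and relax the muscle. An axon terminal stores transmitter in synaptic vesicles. SNARE proteins of the vesicle and of the plasma membrane zip together when synaptotagmin binds calcium, the vesicle empties, and dynamin pinches its membrane back into the terminal.

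The RNA came from colons of 17 C57BL/6 males that were 32 to 34 weeks old, 9 controls on plain water and 8 GWI mice. Pyridostigmine bromide (PB), which blocks acetylcholinesterase reversibly, was in the drinking water of the GWI mice for 7 days at 2 mg/kg. They then recovered for 21 days, and colons were collected on day 30. The dose rests on an estimate of average water intake, and all mice were male. The comparison asks which transcripts still differed after PB had been withdrawn. The sources used here call the tissue a colon explant and do not name the layers of the wall in it. The libraries held between 16744096 and 20741212 counts each for controls, and between 16293537 and 18389686 for GWI mice. Levels are CPM, counts normalised to a common library size after TMM scaling in edgeR. Log2 fold changes set GWI against control and carry a standard error (SE). A gene was called where edgeR's quasi-likelihood test gave an adjusted p under 0.05, by Benjamini-Hochberg adjustment over all 14146 genes.

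Some libraries stood apart. Fabp6, an ileal bile acid carrier, had 119 CPM in Control replicate 6 and 314 CPM in Control replicate 7, against 0.63 to 6.90 CPM in the other mice. Apoa1, an apolipoprotein of the small intestine, had 28.7 and 133 CPM in the same mice. In Control replicate 9 the 10 most abundant genes took 23.1% of the counts, against 9.72% to 17.3% in the other mice. Control replicate 1 had the highest level of the water channel gene Aqp8, 1934 CPM, and the lowest of the carbonic anhydrase gene Car1, 1988 CPM. Among GWI mice, replicate 5 had the highest level of Aqp8, 1047 CPM, and the lowest of Car1, 3865 CPM.

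The smooth muscle genes Myh11 and Actg2 served as a guide to the share of muscle in each sample. Myh11, the heavy chain of smooth muscle myosin, had a lowest value of 701 CPM, a median of 2700 CPM and a highest value of 7005 CPM in control mice, and 740, 1205 and 2437 CPM in GWI mice. The lowest control was replicate 9 and the highest was replicate 6, and 6 of the 9 controls lay above every GWI mouse. The log2 fold change of Myh11 was -1.10 (SE 0.38, adjusted p = 0.0407). Among 17 fits with 1 mouse left out, the call was kept in 5, those without Control replicate 7, 8 or 9 or GWI replicate 5 or 8. It was lost without any other mouse, with adjusted p-values from 0.0528 without Control replicate 2 to 0.0896 without Control replicate 6. Without both Control replicates 6 and 7 the log2 fold change was -0.91 and the adjusted p 0.0792. Actg2, a smooth muscle actin of the gut, had 320, 1521 and 2890 CPM in control mice and 497, 698 and 1678 CPM in GWI mice, with a log2 fold change of -0.91 (SE 0.37, adjusted p = 0.0716). The adjusted p of Actg2 was under 0.05 without Control replicate 8 (0.0464) or 9 (0.0191) or GWI replicate 5 (0.0296). A muscle score was made for each mouse as the mean log2 CPM of both genes, centred over the 17 mice. Its median was 0.60 in control mice and -0.60 in GWI mice. Replicates 7, 8 and 9 were the controls with negative scores, at -0.30, -0.79 and -1.50, and replicates 5 and 8 were the GWI mice with positive scores, at 0.59 and 0.19.

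As a set, the 33 genes were lower in most GWI mice than in most controls, and they varied more among the controls, as most genes of the table did. The geometric mean of the 33 genes had a lowest value of 7.36 CPM, a median of 18.4 CPM and a highest value of 31.6 CPM in control mice, and 8.93, 12.7 and 23.0 CPM in GWI mice. Control replicates 1, 3, 4 and 5 lay above every GWI mouse, at 26.5 to 31.6 CPM. Control replicates 7 and 9 lay below every GWI mouse, at 7.36 and 7.88 CPM, and Control replicate 8, at 9.07 CPM, lay above no GWI mouse but replicate 2. The ratio of the highest to the lowest mouse was larger among controls than among GWI mice for all 33 genes, with a median ratio of 5.76 among controls and 2.98 among GWI mice. Over the 14106 tested genes with a count in every mouse it was larger among controls for 83.7%, with medians of 2.33 and 1.60. With 1 control left out, which leaves 8 mice in each group, it was larger among controls for 28 of the 33 genes without Control replicate 7, a share near the 81.9% of all genes. Without any other control it was for 32 or 33 of them, where the share of all genes ran from 72.1% without Control replicate 1 to 83.3% without Control replicate 5. Across all 17 mice, the highest value was a control's for 32 of the genes and the lowest value was a control's for 28. Replicate 1 was the highest mouse for 17 genes and replicate 4 for 11, while replicate 7 was the lowest for 13 genes and replicate 9 for 12.

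**Figure D1:**
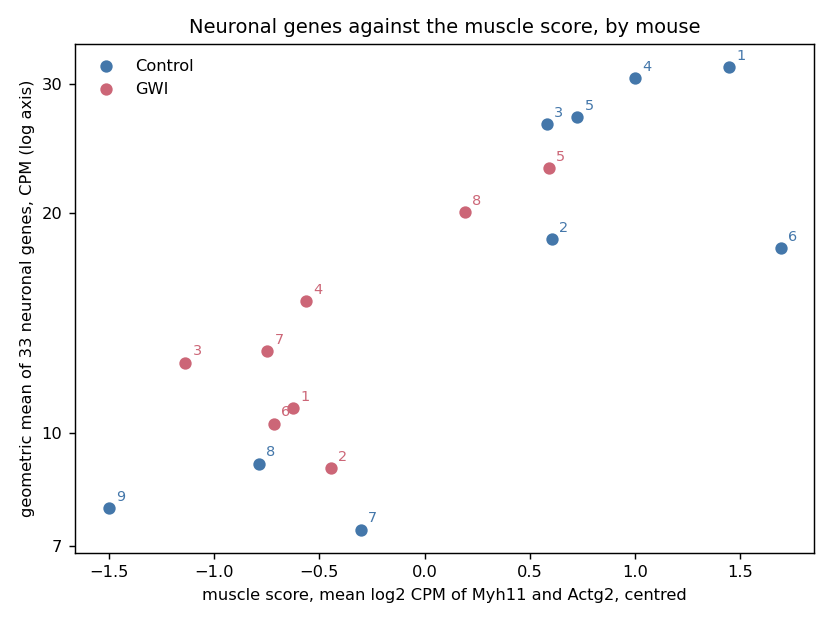
Geometric mean of the 33 neuronal genes (CPM, log axis) against the muscle score (mean log2 CPM of Myh11 and Actg2, centred) in each of 9 control and 8 GWI mice; numbers are replicate numbers. Control replicates 8 and 9 sit at low values on both axes. Control replicate 7 has the lowest neuronal mean, 7.36 CPM, at a muscle score of -0.30, above 6 of the 8 GWI mice, and Control replicate 6 has the highest muscle score, 1.69, with a neuronal mean of 17.9 CPM.

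In the comparison of the groups, 32 of the 33 genes had a negative log2 fold change, against 55.2% of all tested genes. Their median was -0.55, against -0.06 over all genes. Most of the 33 genes varied together over the mice, so their signs are not 33 independent observations. Nefl and Cplx2 were called lower in GWI colons, 2 of 33 or 6.06%, where 13.5% of all genes were called lower. None was called higher, where 13.4% of all genes were. At an unadjusted p under 0.05, 6 of the genes were lower, against 22.1% of all genes, and L1cam was higher, against 19.3%. With all 17 mice these shares did not exceed those among all genes, although the direction was nearly uniform. At an unadjusted p under 0.05 this turned with single mice. Without Control replicate 7, 14 of the 33 genes were lower (21.9% of all genes), without GWI replicate 5 it was 12 (23%), without Control replicate 8 it was 11 (22.5%) and without Control replicate 9 it was 10 (22.6%), each a larger share than among all genes. The DESeq2 Wald test called 4 lower (Cplx2, Hand2, Nefl and Thy1; 17.3% of all genes) and L1cam higher (15.3%). With all mice none passed, in edgeR or in the Wald test, the threshold in the methods of the study, an unadjusted p under 0.05 with an absolute log2 fold change over 1, which 1.77% of all genes passed on the lower side in edgeR and 1.87% in the Wald test, the test that the study used. Without GWI replicate 5 Nefl passed it (-1.10; 3.44% of all genes), and without GWI replicate 8 Hand2 did (-1.01; 3.04%). In whole tissue, fewer neurons, less RNA per neuron and a different share of the wall layers in the sample cannot be told apart.

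The number called depended on which mice were in the fit. Without Control replicate 9 it was 5 (15.8% of all genes), without Control replicate 7 it was 4 (12.8%), without Control replicate 8 it was 4 (14%), without GWI replicate 5 it was 4 (14.5%) and without GWI replicate 8 it was 3 (13.7%). Cplx2 alone was called lower in 10 of the fits, those without Control replicate 1, 3, 5 or 6 or GWI replicate 1, 2, 3, 4, 6 or 7, where the share of all genes ran from 9.21% without GWI replicate 7 to 16.3% without Control replicate 1. Without Control replicates 6 and 7, the mice with high Fabp6, the median log2 fold change was -0.68 and 16 genes were lower at an unadjusted p under 0.05 (19.8% of all genes). Only Stmn3 was then called at an adjusted p under 0.05 (log2 fold change -0.89, adjusted p = 0.0361), where 9.56% of all genes were.

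Of the pan-neuronal proteins, Elavl3 and Elavl4 encode RNA-binding Hu proteins, Uchl1 a neuronal ubiquitin hydrolase, Sncg gamma-synuclein, Thy1 a surface glycoprotein of neurons that T cells also carry, and Tagln3 an actin-associated neuronal protein. Uchl1, with the most counts of these 6, had a lowest value of 9.55 CPM, a median of 43.5 CPM and a highest value of 89.2 CPM in control mice, and 14.7, 27.1 and 56.8 CPM in GWI mice. Control replicates 1, 3, 4 and 5 lay above every GWI mouse and replicates 7, 8 and 9 lay below every GWI mouse, so the controls enclosed the GWI range on both sides. The log2 fold change of Uchl1 was -0.63 (SE 0.43, adjusted p = 0.273). The other 5 genes had log2 fold changes between -0.72 for Thy1 and -0.50 for Sncg. Thy1 ranged from 11.9 to 57.0 CPM in control mice and from 14.8 to 29.7 CPM in GWI mice. Its highest level was in Control replicate 6, the mouse with the highest muscle score, and which cells carried the RNA was not tested. For this gene 6 of the controls, replicates 1 to 6, lay above every GWI mouse and replicates 8 and 9 lay below, and the adjusted p was 0.064. It was under 0.05 without Control replicate 8 (0.0233) or 9 (0.0187) or GWI replicate 8 (0.0487).

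Stmn2 and Stmn3 encode stathmins, which bind tubulin in growing axons, Gap43 a growth cone protein, and Mapt the microtubule-associated protein tau. Stmn2 had 11.6, 30.1 and 61.2 CPM as lowest, median and highest value in control mice, and 13.9, 21.8 and 40.1 CPM in GWI mice. The same 4 controls were above all GWI mice, and Control replicate 7 was below all of them. Stmn2 had a log2 fold change of -0.59 (SE 0.32, adjusted p = 0.177). Stmn3 had -0.70 (SE 0.32, adjusted p = 0.104, and 0.0373 without Control replicate 7), Gap43 -0.58 and Mapt -0.33.

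Of the neuronal intermediate filaments, Prph encodes peripherin, the filament protein of peripheral neurons, Nefl, Nefm and Nefh the light, medium and heavy neurofilament chains, and Ina alpha-internexin. Nefl had a lowest value of 5.19 CPM, a median of 14.4 CPM and a highest value of 33.8 CPM in control mice, and 4.37, 8.03 and 17.9 CPM in GWI mice. Most controls were high for this gene, replicate 7 included at 13.6 CPM, and replicate 8 was the only control below the GWI median. GWI replicate 5 was the one GWI mouse near the higher controls. Nefl (ENSMUSG00000022055.7, chr14:68083863-68089095 on the plus strand in GRCm38) was lower in GWI colons with a log2 fold change of -0.88 (SE 0.30, adjusted p = 0.0394), 54.4% of the control level. With single mice left out, the call was kept in 6 of 17 fits. It was lost without Control replicate 1 (adjusted p = 0.0517), 3 (0.0611), 5 (0.0527) or 6 (0.0838), and without GWI replicate 1 (0.0692), 2 (0.0554), 3 (0.0766), 4 (0.0535), 6 (0.0738), 7 (0.0716) or 8 (0.056). Control replicate 6 had the highest level, and without it the log2 fold change was -0.67. Without both Control replicates 6 and 7 it was -0.68 (adjusted p = 0.103). Over all alternatives the log2 fold change of Nefl ran from -1.10 to -0.56, with adjusted p-values from 0.0121 to 0.182. Exons of Nefl and Nefm overlap on opposite strands, and since the strand setting of the counting is not given in the sources used here, both counts are uncertain.

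Prph, the most abundant filament gene by counts, had 11.5, 40.4 and 87.0 CPM in control mice and 15.3, 28.1 and 52.7 CPM in GWI mice. Control replicates 1, 3, 4 and 5 lay above the GWI range and replicate 7 below it. Its log2 fold change of -0.60 had an SE of 0.39 (adjusted p = 0.248), and Nefm had -0.36, Nefh -0.57 and Ina -0.51. Ina spread 14.8-fold among controls, from 1.05 to 15.5 CPM, and 4.05-fold among GWI mice.

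Of the SNARE genes, Vamp2 and Stx1a differed little between the groups, and Snap25 was near the median of the 33 genes. Vamp2 encodes synaptobrevin of the vesicle membrane, and Stx1a and Snap25 encode syntaxin and SNAP-25 of the plasma membrane. Vamp2 had 59.4, 80.2 and 112 CPM as lowest, median and highest value in control mice, and 71.0, 74.7 and 107 CPM in GWI mice. All GWI mice lay within the range of the controls, with Control replicates 7, 8 and 9 below them and Control replicate 1 above them. The log2 fold change was -0.01 (SE 0.13, adjusted p = 0.973), and it turned to 0.07 without Control replicate 1. Stx1a had a log2 fold change of -0.17 (SE 0.18). Snap25 had -0.58 (SE 0.34, adjusted p = 0.199), with 11.7 to 72.8 CPM in control mice and 12.9 to 48.1 CPM in GWI mice.

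The vesicle proteins and regulators of fusion were the synaptotagmins Syt1 and Syt4, of which Syt1 is the calcium sensor of fast release, the synapsins Syn1 and Syn2, which tether vesicles, synaptophysin (Syp), the complexin Cplx2, which clamps and primes the SNARE complex, and the vesicle GTPases Rab3a and Rab3c. Cplx2 had a lowest value of 11.4 CPM, a median of 24.1 CPM and a highest value of 29.6 CPM in control mice, and 10.2, 15.6 and 21.2 CPM in GWI mice. Control replicates 1 to 7 lay above every GWI mouse, replicate 2 by a small margin, and replicates 8 and 9 lay within the GWI range. Unlike the other vesicle genes, Cplx2 was high in Control replicate 7, at 23.5 CPM. Cplx2 (ENSMUSG00000025867.8, chr13:54371349-54383917, plus strand) was lower in GWI colons, with a log2 fold change of -0.60 (SE 0.18, adjusted p = 0.0227), 66.2% of the control level. The gene was called whichever of the 17 mice was left out, with log2 fold changes from -0.68 to -0.53, and had an adjusted p of 0.0515 without Control replicates 6 and 7.

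Rab3c, with the most counts of the 8 vesicle genes, had 14.5, 30.0 and 62.2 CPM in control mice and 12.2, 20.8 and 49.4 CPM in GWI mice. Control replicates 1, 4 and 5 were above every GWI mouse, and GWI replicate 2 was below every control. Its log2 fold change was -0.58 (SE 0.30, adjusted p = 0.146, and 0.0473 without GWI replicate 5). Rab3a, of the same family, had 6.06, 15.0 and 22.0 CPM in control mice and 8.66, 14.1 and 17.8 CPM in GWI mice, with a log2 fold change of -0.01 (SE 0.21) that was 0.09 without Control replicate 1. Among controls Syn1 spread the most of the vesicle genes, 17.1-fold, from 1.18 to 20.3 CPM, and among GWI mice it spread 3.41-fold. The log2 fold changes of Syt1, Syt4, Syn1, Syn2 and Syp lay between -0.53 for Syt4 and -0.41 for Syt1, with adjusted p-values from 0.205 for Syn2 to 0.519 for Syn1.

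Dnm1, the neuronal dynamin that severs endocytic vesicles, had 6.97, 22.0 and 42.2 CPM in control mice and 13.5, 19.6 and 28.6 CPM in GWI mice. Control replicates 8 and 9 were below every GWI mouse and replicates 1, 3, 4 and 5 above. The log2 fold change was -0.32 (SE 0.28, adjusted p = 0.387). Scg2 and Scg3 encode secretogranins, proteins of the dense-core vesicles that hold peptides and amines, in neurons and in endocrine cells. Scg2 had 20.7, 61.4 and 147 CPM in control mice and 20.8, 44.7 and 97.6 CPM in GWI mice. Replicates 1, 4 and 5 of the controls were above all GWI mice, and Control replicate 7 and GWI replicate 2 shared the bottom of the range. The log2 fold changes were -0.62 for Scg2 (SE 0.38, adjusted p = 0.229) and -0.61 for Scg3 (SE 0.28, adjusted p = 0.115, and 0.0438 without Control replicate 9).

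Phox2a and Hand2 encode transcription factors of the neural crest lineage that forms enteric neurons. Hand2 had a lowest value of 12.7 CPM, a median of 57.7 CPM and a highest value of 70.5 CPM in control mice, and 18.8, 19.7 and 42.8 CPM in GWI mice. Control replicates 1 to 6 lay above every GWI mouse, and replicates 8 and 9 lay below. GWI replicates 5 and 8 were apart from the other GWI mice on the high side. The log2 fold change was -0.86 (SE 0.33, adjusted p = 0.0602). It was called in 5 of the 17 fits with a mouse left out, those without Control replicate 7 (adjusted p = 0.0433), 8 (0.0211) or 9 (0.023) and those without GWI replicate 5 (0.0427) or 8 (0.0366). Phox2a was scarce, with 7 to 150 counts in a control and 20 to 85 in a GWI mouse, and had a log2 fold change of -0.53 (SE 0.51). In Control replicate 6, the mouse with the highest muscle score, Hand2 had 1579 counts, its most in any mouse, and Phox2a had 55. Whether the Hand2 RNA came from neurons alone was not tested.

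The adhesion molecules went in opposite directions. Ncam1 had a log2 fold change of -0.55 (SE 0.32, adjusted p = 0.206). L1cam (ENSMUSG00000031391.18, chrX:73853778-73896105, minus strand), which guides and bundles axons, had a lowest value of 39.4 CPM, a median of 88.0 CPM and a highest value of 118 CPM in control mice, and 91.1, 124 and 139 CPM in GWI mice. All GWI mice but replicates 5 and 8, 6 of the 8, lay above every control, and Control replicates 1, 6, 7, 8 and 9 lay below every GWI mouse. It was the only one of the 33 genes with a positive log2 fold change, 0.46 (SE 0.17, adjusted p = 0.0518). The adjusted p was under 0.05 without Control replicate 2 (0.0342), 4 (0.0451), 5 (0.0495) or 9 (0.0324) and without GWI replicate 5 (0.0377). Exons of L1cam overlap those of Arhgap4 on the same strand, which had at most 49 counts in a mouse, against 565 to 2457 for L1cam.

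**Figure D2:**
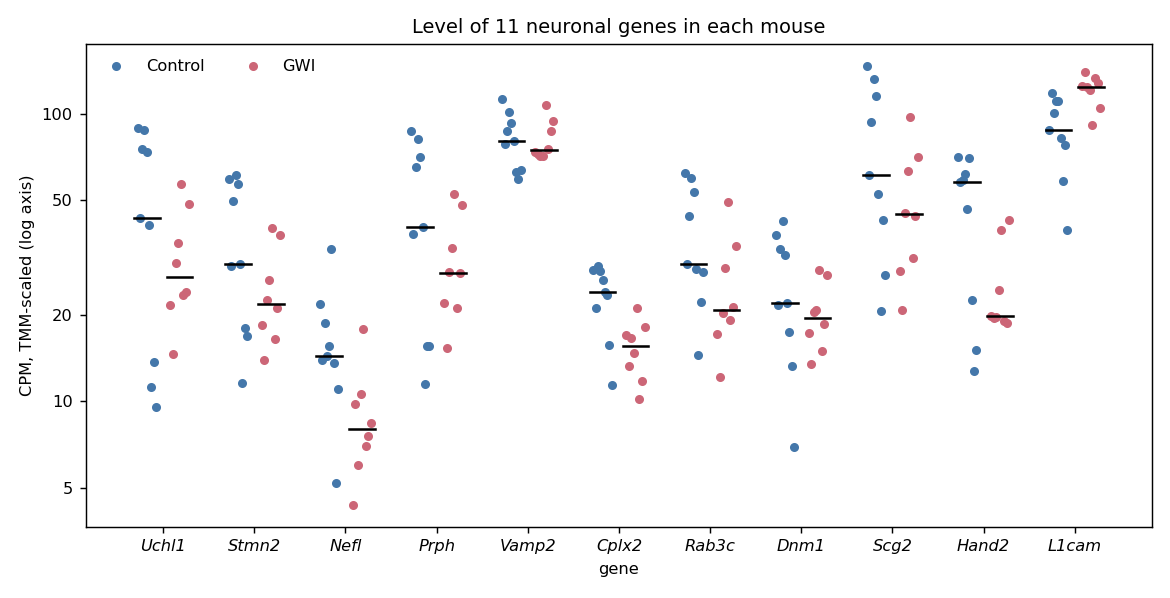
CPM (log axis) in each mouse, 9 control (blue) and 8 GWI (red), for the gene with the most counts in each role and for the called genes Nefl and Cplx2; black lines are group medians. Controls spread to both sides of the GWI mice for most genes, while for L1cam 6 of the 8 GWI mice lie above every control.

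Per kilobase of exon, the 33 genes spanned from 27.1 CPM per kb for Sncg to 0.63 CPM per kb for Elavl3 in the mean of all mice. Sncg, Scg2 (25.6), Uchl1 (25.2), Vamp2 (21.5) and Prph (19.9 CPM per kb) led the order. In control means Prph (23.7) was above Vamp2 (21.5), and in GWI means the order was Sncg (22.3), Vamp2 (21.4), Scg2 (19.96), Uchl1 (19.5) and L1cam (16.4), with Prph (15.6 CPM per kb) next. The SD within control mice was 13.7 CPM per kb for Sncg and 18.5 for Scg2. Differences between neighbours within a mouse were not tested, so the order of close neighbours is not established. Among the SNARE genes, the level of Vamp2 was above those of Snap25 (5.42 CPM per kb) and Stx1a (1.67 CPM per kb). Among the filaments the level of Prph was above those of Nefl (3.83), Ina (1.85), Nefm (1.36) and Nefh (0.73 CPM per kb). The exons of 9 of the genes overlap exons of another gene in the count table, Uchl1, Nefl, Nefm, Ina, Syn1, Syn2, Rab3a, Phox2a and L1cam, so their counts are uncertain. For some the other gene had more counts, on the opposite strand. Syn1 had 17 to 325 counts in a mouse and Araf up to 1808, Phox2a 7 to 150 and Inppl1 up to 2406, Ina 15 to 245 and Nt5c2 up to 742, and Rab3a 87 to 349 and Mpv17l2 up to 931.

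The neuronal genes were then set against the muscle score in a fit with both the score and the group. The slope is the log2 change of a gene per unit of the log2 score among mice of the same group. It was positive and called for 31 of the 33 genes, 93.9%, where 25.2% of all genes rose with the score. None was called falling, where 23.3% of all genes fell, and none fell at an unadjusted p under 0.05 either, where 26.7% did. The median slope was 0.65, against 0.01 over all genes. The score and the neuronal genes of a mouse come from the same library and the same scaling. Marker genes of some other cells were also called rising with the score. These were 8 of 8 other smooth muscle genes (median slope 0.82), 6 of 7 fibroblast genes (0.46) and 5 of 9 enteric glia genes (0.35). None was called falling in these 3 lists. Of 15 enteroendocrine genes 1 was called rising and 4 falling (-0.29), and of 7 T cell genes 0 and 3 (-0.30). Of 11 colon epithelium genes 3 were called rising and 1 falling (0.27), and of 5 small intestine genes 1 and 0 (-0.048). Without Control replicate 1 no T cell gene was called falling and no colon epithelium gene rising. The part of these lists in the neuronal slopes was not tested. The steepest slopes were those of Syn1 (1.25, SE 0.21), Ina (1.14, SE 0.22), Phox2a (1.10, SE 0.27) and Uchl1 (1.03, SE 0.20), all above 1. Hand2 had 0.85 (SE 0.088) with the smallest adjusted p of the 33, 8.75e-07. The flattest were L1cam (0.22, SE 0.11, adjusted p = 0.108) and Stx1a (0.23, SE 0.097, adjusted p = 0.0588), neither of which was called, and Vamp2 (0.27, SE 0.053, adjusted p = 0.000476).

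With a mouse left out, 30 to 32 slopes were called. Sncg lost its call without Control replicate 1 (adjusted p = 0.0521), 4 (0.0511) or 8 (0.0774) and without GWI replicate 5 (0.0626) or 8 (0.0504), and Syt4 lost it without GWI replicate 5 (0.0504). Stx1a was called without GWI replicate 3 (0.0487) or 5 (0.0443), and L1cam without GWI replicate 5 (0.0245). Without Control replicate 9, the mouse with the lowest score, the slope of L1cam was 0.0022.

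At equal muscle score the estimated log2 fold change was under 0.3 in absolute value for 24 of the 33 genes. Its SE had a median of 0.26 and reached 0.45, so these values do not show that the groups were alike. The log2 fold change was negative for 9 and positive for 24 of the 33 genes, where 51.1% of all genes were negative. The median was 0.10, against -0.01 over all genes. As in the comparison of the groups, these signs are not independent. The lean to positive values was absent without Control replicate 7. In that fit 17 were negative and 16 positive, with a median of -0.027, and without Control replicates 6 and 7 the counts were also 17 and 16, with a median of -0.032. The median was higher in other fits, with 0.17 without Control replicate 3, 0.19 without Control replicate 9 and 0.18 without GWI replicate 2. Without Control replicates 1, 5, 6 and 9, 4 were negative and 29 positive, with a median of 0.28. With a score made from 8 other smooth muscle genes, 5 were negative and 28 positive, with a median of 0.24. In edgeR's test with all mice none was called lower, where 20.7% of all genes were. None was lower at an unadjusted p under 0.05, where 25.2% were. At that threshold 1 was lower without Control replicate 8 or 9 or GWI replicate 1, 3 or 5. The number was also 1 without Control replicates 6 and 7, and without Control replicates 1, 5, 6 and 9. Each was a smaller share than among all genes of the same fit. With all mice Nefl had a log2 fold change of -0.37 (SE 0.22, adjusted p = 0.188) and Cplx2 one of -0.28 (SE 0.14, adjusted p = 0.129). Hand2 (-0.02, SE 0.15) and Thy1 (-0.02, SE 0.16) were near 0. Positive values reached 0.86 for Syn1 (SE 0.35, adjusted p = 0.056) and 0.68 for Ina (SE 0.37, adjusted p = 0.16). The score itself differed between the groups in its median, and whether muscle share accounts for the lower neuronal levels was not tested.

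With all mice and this score, L1cam was the only one of the 33 genes called at equal muscle score. It was higher in GWI colons with a log2 fold change of 0.68 (SE 0.19, adjusted p = 0.00825), where 18.8% of all genes were called higher. The call rested in part on Control replicate 9, which had the lowest L1cam level and the lowest score. Without this mouse the log2 fold change was 0.38 and the adjusted p 0.121, and without Control replicates 6 and 7 they were 0.61 and 0.0219. Without Control replicates 1, 5, 6 and 9 they were 0.44 and 0.0942. Marker genes of the epithelium moved the same way at equal muscle score. With all mice 8 of 11 were called higher with a median of 0.78, among them Cdh1 (0.78, SE 0.13) and Vil1 (0.91, SE 0.17). Erbb3, listed with the glia, had 1.02 (SE 0.17). Without Control replicate 9, 4 of the 11 epithelium genes were called higher, where 1987 of all 14093 genes were. The part of these marker genes in the value of L1cam was not tested. Leaving out Control replicate 6 brought the number called higher to 4, with Syn1 (0.89, adjusted p = 0.0111), Vamp2 (0.22, adjusted p = 0.0437) and Rab3a (0.40, adjusted p = 0.0471) beside L1cam (0.69, adjusted p = 0.00724). Of all 14065 genes in that fit 2705 were called higher, a larger share than 4 of 33. Syn1 was also called without Control replicate 3 (0.0376), 4 (0.046) or 5 (0.0398) or GWI replicate 2 (0.0457), Vamp2 without Control replicate 1 (0.0315) or 9 (0.0421), and Rab3a without GWI replicate 2 (0.0231). Without Control replicates 6 and 7, L1cam and Syn1 (0.69, adjusted p = 0.0222) were called, where 2466 of all 14139 genes were called higher. Without Control replicates 1, 5, 6 and 9 it was Syn1 (0.94, adjusted p = 0.0399) and Vamp2 (0.33, adjusted p = 0.00846), where 2451 of all 14256 genes were called higher. With the score of 8 other smooth muscle genes it was L1cam (0.65, adjusted p = 0.024) and Vamp2 (0.29, adjusted p = 0.0364), where 2504 of all 14146 genes were.

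Taken mouse by mouse, the geometric mean of the 33 genes per 1000 CPM of the muscle genes was 4.12 to 16.6 in control mice, with a median of 11.4, and 9.06 to 20.4 in GWI mice, with a median of 12.8. The lowest ratios were those of Control replicates 6 (4.12) and 7 (6.77), the mice with high Fabp6. Control replicate 9, among the lowest in neuronal genes, had 16.6, above all but 2 of the other 16 mice.

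**Figure D3:**
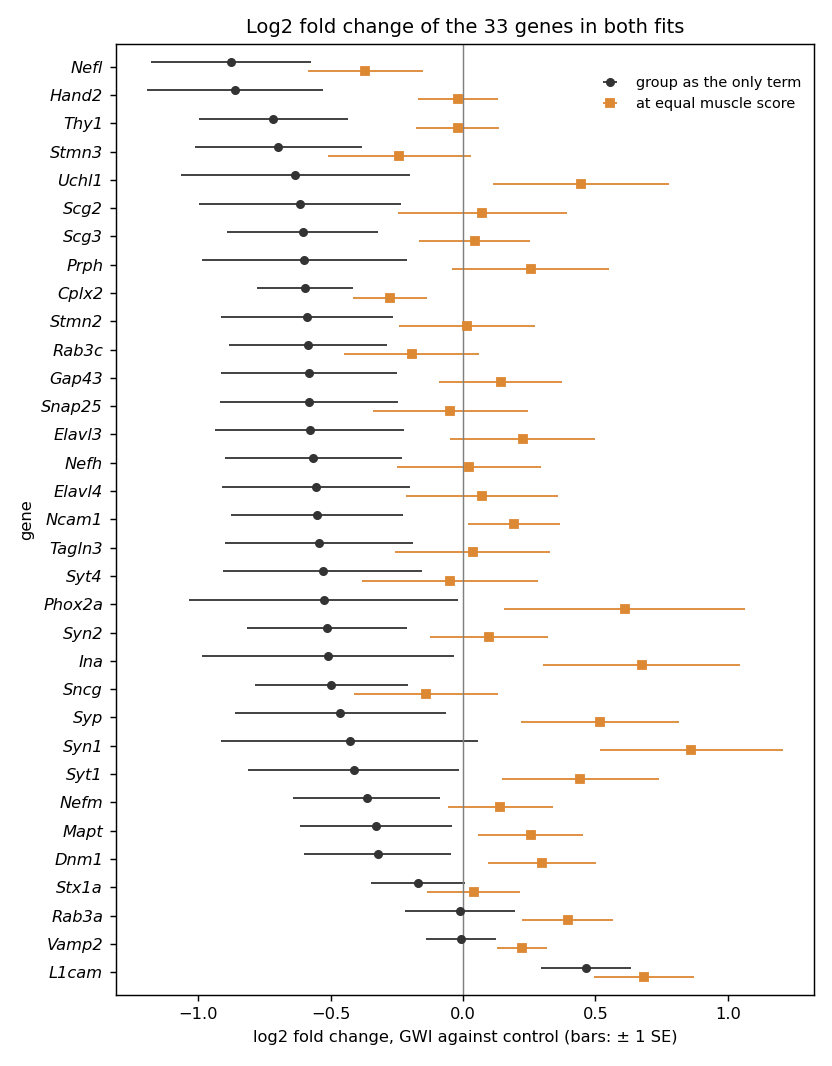
Log2 fold change of GWI against control with bars of ± 1 SE for the 33 genes, with the group as the only term (circles) and at equal muscle score (squares). With the group alone 32 of the 33 values lie below 0, and at equal muscle score 24 lie above 0. In the fit at equal muscle score without Control replicate 7, which is not drawn, 16 do.

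Other genes of neurons and exocytosis had mostly negative log2 fold changes too, but few were called. Of 73 such genes 72 were tested, and 62 had a negative log2 fold change (55.2% of all genes), with a median of -0.43. These signs are not independent of each other either. Of these 72 genes 6 were called lower (13.5% of all genes) and 0 higher (13.4%). At an unadjusted p under 0.05, 13 were lower (22.1%) and 3 higher (19.3%), and the Wald test called 9 lower (17.3%) and 2 higher (15.3%), so with all mice none of these shares exceeded that among all genes. On the lower side this turned with single mice. At an unadjusted p under 0.05 the number was 21 without Control replicate 7 (21.9% of all genes), 20 without Control replicate 8 (22.5%), 19 without Control replicate 9 (22.6%), 19 without GWI replicate 5 (23%) and 17 without GWI replicate 8 (22.2%), each a larger share than among all genes. Without Control replicate 7, 10 were called lower (12.8% of all genes), and without Control replicates 6 and 7, 8 were called lower (9.56%) and 23 were lower at an unadjusted p under 0.05 (19.8%), also larger shares. Without Control replicate 4 (11.1% of all genes) or GWI replicate 1 (11.2%), 6 (9.39%) or 7 (9.21%), 3 were called lower. The number called higher was 3 without Control replicate 1 (17.9% of all genes) and 2 without Control replicate 9 (2272 of all 14093 genes). It was 1 without Control replicate 4 (1654 of 14073) or GWI replicate 2 (1656 of 14204) or 6 (1521 of 14221). Without Control replicates 1, 5, 6 and 9 it was 3 (2398 of 14256). Each was a smaller share than among all genes. Among the called genes were Rims1, a scaffold of the active zone (-0.99, SE 0.25), Stmn1, a stathmin of dividing and immature cells (-0.56, SE 0.15), Scg5, a chaperone of a prohormone convertase (-0.66, SE 0.21), Cpe, a peptide-processing carboxypeptidase and the most abundant of the list (-0.77, SE 0.27), and Rab3b (-0.88, SE 0.32), with adjusted p-values from 0.00899 for Rims1 to 0.0488 for Rab3b. Rims1 and Stmn1 were called whichever mouse was left out. Scg5 lost its call without Control replicate 4 (0.0514) or GWI replicate 1 (0.0504), 6 (0.0551) or 7 (0.058). Cpe kept its call only without Control replicate 7, 8 or 9 or GWI replicate 5 or 8, and Rab3b only without Control replicate 1, 8 or 9 or GWI replicate 8, with adjusted p-values of up to 0.0935 and 0.105 without Control replicate 6. Without Control replicates 6 and 7, Cpe (0.0852) and Rab3b (0.124) were not called. In these genes 52 slopes on the muscle score were called positive (25.2% of all genes) and 3 negative (23.3%). At equal muscle score 4 were called lower (20.7% of all genes) and 8 higher (18.8%), both smaller shares than among all genes. With a mouse left out 1 to 6 were lower, and at most 2 without Control replicate 5, 8 or 9 or GWI replicate 2, 3 or 6. The number higher was 2 to 10, and at most 5 without Control replicate 7, 8 or 9 or GWI replicate 4, 5, 6 or 7. In each of these fits both shares were smaller than among all genes. The fewest among all genes were 1931 lower and 1987 higher of 14093, without Control replicate 9.

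Marker genes of other cells also differed between the groups, and their part in the neuronal result was not tested. Among 8 other smooth muscle genes, all 8 had negative log2 fold changes (55.2% of all genes), with a median of -0.91, and 6 were called lower (13.5%), Tagln, Mylk, Synpo2, Lmod1, Smtn and Acta2. Their summed level was 2669 to 14227 CPM in control mice and 2416 to 7716 CPM in GWI mice, led by Acta2 at 1443 CPM. Tagln and Mylk were called whichever mouse was left out, Synpo2 was lost without Control replicate 6 (adjusted p = 0.058) or GWI replicate 3 (0.0559), 4 (0.053), 6 (0.0548) or 7 (0.0532), and Lmod1, Smtn and Acta2 were called only without Control replicate 7, 8 or 9 or GWI replicate 5 or 8, with up to 0.0923, 0.101 and 0.104 without Control replicate 6. Without Control replicates 6 and 7, Tagln and Mylk alone of the 6 were called. Of 11 enteric glia genes 9 were tested, 6 of these with a negative log2 fold change, and the median of the 9 was -0.74. The number called was 3 lower (13.5% of all genes) and 1 higher (13.4%), and 5 were lower at an unadjusted p under 0.05 (22.1%). Without Control replicate 8 (14% of all genes) or 9 (15.8%) or GWI replicate 8 (13.7%), 5 were called lower. Without GWI replicate 4, 5 or 7, 10 were tested, and the median was -0.46, -0.44 and -0.44. Cdh19 (-1.29, SE 0.22) and Foxd3 (-1.28, SE 0.40) were among those called lower, and Erbb3 (0.91, SE 0.16), the most abundant with 74.5% of the list's level, was called higher. The summed level was 221 to 467 CPM in control mice and 421 to 550 CPM in GWI mice, and without Erbb3 it was 59.3 to 177 CPM and 59.1 to 121 CPM. Of 16 enteroendocrine genes, whose cells share secretogranins and much of the exocytosis machinery with neurons, 15 were tested. With all mice none of these was called in either direction by edgeR or by the Wald test, or passed an unadjusted p under 0.05. Without GWI replicate 5, 1 was called lower (14.5% of all genes). In that fit 1 was higher at an unadjusted p under 0.05 (2680 of all 14208 genes). The number higher at this threshold was also 1 without Control replicate 9 (3043 of all 14093 genes). The sum was 275 to 627 CPM in control mice and 292 to 760 CPM in GWI mice, led by Chga (193 CPM).

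Of 7 fibroblast genes Dcn (-0.75, SE 0.20) and Dpt (-0.76, SE 0.21) were called lower (13.5% of all genes), and the list summed to 343 to 1025 CPM in control mice and 332 to 882 CPM in GWI mice, led by Col3a1 (174 CPM). With all mice none of 7 T cell genes was called by either tool or passed an unadjusted p under 0.05. Lck was called lower without Control replicate 1 (-0.39, adjusted p = 0.0376) and without Control replicates 1, 5, 6 and 9 (-0.42, 0.0313), and 1 gene was lower at an unadjusted p under 0.05 without GWI replicate 1. They summed to 3.85 to 17.7 CPM in control mice and 5.23 to 18.2 CPM in GWI mice, led by Lck (4.78 CPM). Of 11 colon epithelium genes Cdh1 (0.62, SE 0.13), Cdx2 (0.38, SE 0.092), Vil1 (0.64, SE 0.18) and Epcam (0.28, SE 0.099) were called higher (13.4% of all genes). Without Control replicate 1 the number was 9 (17.9%), and without Control replicates 1, 5, 6 and 9 it was 6 (2398 of all 14256 genes). Epcam was called only with all mice or without Control replicate 1, 2 or 9 or GWI replicate 1 (up to 0.0967 without GWI replicate 6, and 0.111 without Control replicates 6 and 7). The list summed to 16067 to 36525 CPM in control mice and 18780 to 36794 CPM in GWI mice, led by Car1 (12236 CPM). Of 8 small intestine genes 5 were tested, all but Apoa1, Apoa4 and Lct. Fabp6 (-4.40, SE 1.10) and Anpep (-3.10, SE 0.96) were called lower (13.5% of all genes). Mep1a (0.71, SE 0.15), the most abundant, and Alpi (0.92, SE 0.32) were called higher (13.4%). Without Control replicates 6 and 7 the values were -0.96 for Fabp6 (adjusted p = 0.0814), 0.22 for Anpep (0.555) and 0.86 for Alpi (0.0892), and Mep1a stayed called (0.0135). Anpep also lost its call without Control replicate 7 alone (0.0761), and Alpi kept its call only without Control replicate 1, 4, 5 or 9 or GWI replicate 1, 3 or 8 (up to 0.0728 without GWI replicate 4). This list summed to 272 to 1364 CPM in control mice and 526.1 to 858 CPM in GWI mice, and Apoa4 had a median of at most 1 count. Mep1a made up 75.6% of the list's level. Without it the sum was 55.7 to 948 CPM in control mice and 74.6 to 124 CPM in GWI mice.

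The promoters of the genes were also searched for shared motifs, whose part in the slopes on the muscle score was not tested. RefSeq promoters (GRCm38.p6, from 250 bases before to 50 after the gene start) were matched for 22 of the 33 genes. The letters were CAGCACC and GGACAGC, which are parts of the element bound by the neuronal gene repressor REST, TGACGTCA, the element bound by CREB, TATAAA, the TATA box, and GGGCGG, the box bound by Sp1. Both strands were searched, and none of these motifs contains another. CAGCACC was in the promoters of Scg2 and Syn1, 2 of 22, and in 8.14% of all genes with a promoter in the table. GGACAGC was in 1, that of Scg2 (7.59% of all genes), TGACGTCA in 2, those of Scg2 and Syn1 (2.03%), TATAAA in 2, those of Elavl3 and Prph (15.7%), and GGGCGG in 14 (38.2%). A match describes the letters in this window and is not shown to be a bound site.

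The stretches with matches are printed for Syn1, the gene with the steepest slope on the muscle score, and for Scg2, on the minus strand of both genes' chromosomes and 5′ to 3′, with the matches on either strand in capitals. That of Syn1 lies at chrX:20921005-20921168, upstream of the annotated transcripts, and holds CAGCACC at 2 places and TGACGTCA at 1. Those of Scg2 lie at chr1:79440079-79440102, with TGACGTCA, and at chr1:79440027-79440048, with GGACAGC and CAGCACC side by side as their reverse complements. Both are before the RefSeq start and within the untranslated first exon of the longer Scg2 transcript in GENCODE M21.
Syn1: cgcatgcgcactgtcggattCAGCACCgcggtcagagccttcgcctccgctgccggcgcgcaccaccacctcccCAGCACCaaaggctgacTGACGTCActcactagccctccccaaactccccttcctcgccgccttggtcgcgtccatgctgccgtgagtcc
Scg2 first stretch: tgagccggTGACGTCAgcgtggaa
Scg2 second stretch: gccgaggaGCTGTCCGGTGCTG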

How the data were processed

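Libraries were made from poly(A) RNA and read from both ends. The authors used Trimmomatic 0.36 for trimming, STAR 2.5.2b for mapping to GRCm38 and featureCounts for counting, and the raw counts were deposited. The annotation release and strand setting are not given in the sources used here. All 17 columns were matched to a mouse by label. Counts were filtered with filterByExpr, scaled by TMM and tested across all genes in edgeR 4.0.16 (R 4.3.3; glmQLFTest after a robust glmQLFit) with Benjamini-Hochberg adjustment. The SE is the absolute log2 fold change over the root of F. The muscle score used log2 CPM with a prior count of 2. The steps were tested on simulated data. Positions and exon lengths come from GENCODE M21, where exons of a gene were merged. Named in full were the gene with the most counts in each role and the called genes; of other lists, up to 6 called genes in each direction and the most abundant gene. Some genes of these lists are not reported here. Members and lists were chosen with earlier results of these data known. Alternatives were other scalings and filters, no robust estimation, DESeq2 1.42.0, the replicate block, another muscle score and fits without given mice, of which that without Control replicates 6 and 7 was chosen after the data were seen. Without molecular identifiers, counting error understates technical noise.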

Additional observations from a re-analysis of the deposited data

Results flagged for a closer look

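In 2 of the 70 pairs of gene and group that were looked at, the highest mouse stood far from the others of its group. Nefl had 17.9 CPM in GWI replicate 5, with the next GWI mouse at 10.6 CPM. Scg3 had 37.2 CPM in GWI replicate 8, with the next GWI mouse at 24.0 CPM. Chance flags about 1 in 20 groups, and the genes of a mouse are not independent. GWI replicates 5 and 8 are also the GWI mice with positive muscle scores, at 0.59 and 0.19, whose part in these values was not tested.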

How the results depend on the processing

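The median log2 fold change of the 33 genes stayed negative in every alternative of the group comparison, from -0.71 to -0.43, and the 2 genes Nefl and Cplx2 were called lower under each other scaling, under each filter and without robust estimation. The number called lower was 4 with the DESeq2 Wald test, 6 at an unadjusted p under 0.05, 0 with an absolute log2 fold change over 1 added (1 if GWI replicate 5 or 8 was also left out), 1 without Control replicates 1, 5, 6 and 9, 1 without Control replicates 6 and 7 (chosen after the data were seen), and 1 to 5 in the fits that left out 1 mouse. The number called higher was 1 with the Wald test, 1 at an unadjusted p under 0.05, and 0 to 1 without 1 mouse. At equal muscle score it was 2 with the score of 8 other smooth muscle genes, 2 without those 4 control mice (Syn1 and Vamp2, not L1cam), 2 without those 2 control mice, and 1 to 4 without 1 mouse. Each of these was a smaller share than among all genes of the same fit. The cause of these shifts was not tested.

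With the replicate number as a replicate block, 1 gene was called lower, Cplx2, and 826 of all genes were lower and 1415 higher. The numbers do not pair the mice: correlations of deviations between mice with the same number were -0.51 to 0.11, and 0 of 8 GWI mice correlated best with their own number.

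Vamp2 and Rab3a, near 0, changed sign. Vamp2 had a log2 fold change of 0.062 without the 4 control mice and -0.073 to 0.067 without 1 mouse, and Rab3a had -0.10 to 0.095 without 1 mouse. Depth limits Phox2a, Nefh and other genes with few counts.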
